A study of Mus musculus with 6 samples.

Results

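The 10 genes of polyamine synthesis and catabolism described here were Odc1, Amd1, Srm, Sms, Oaz1, Oaz2, Azin1, Sat1, Smox and Paox. They were taken by symbol from the deposited table of read counts, in which they were 10 of 43346 genes. Fibroblasts from C57BL/6 mouse embryos (primary MEFs, passage 9) were the source of all libraries. In one group of 3 libraries the cells had been exposed for 24 h to 3 µM erastin, an inhibitor of cystine import through the cystine/glutamate antiporter that is used to induce ferroptosis, a death driven by iron-dependent lipid peroxidation. The other group of 3 was labelled DMSO, a common solvent for such compounds. Both groups grew in a serum-containing medium supplemented with 2-mercaptoethanol, nonessential amino acids and antibiotics. As background, 2-mercaptoethanol is known to let cells take up cysteine by a route other than this antiporter; whether it did so here was not tested. The labels number the libraries of each group 1 to 3 but do not say whether they came from separate embryos or cultures, so p-values measure the spread between these libraries only.

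Putrescine, spermidine and spermine are small positively charged molecules that bind nucleic acids and are needed for growth. Ornithine decarboxylase (Odc1) makes putrescine, and spermidine synthase (Srm) and spermine synthase (Sms) extend it with aminopropyl groups that come from S-adenosylmethionine decarboxylated by AMD1. Antizymes (Oaz1, Oaz2) bind ornithine decarboxylase, send it to the proteasome and hold back polyamine uptake, while the antizyme inhibitor AZIN1, an inactive relative of ornithine decarboxylase, takes the antizyme away from it. In the other direction, SAT1 acetylates spermidine and spermine, PAOX oxidises the acetylated products, and SMOX oxidises spermine directly; both oxidases release hydrogen peroxide. SAT1 has been linked to lipid peroxidation and ferroptosis in other cells through p53 and a lipoxygenase.

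Antizyme mRNAs carry a stop codon in the coding sequence that ribosomes pass by a shift of reading frame when polyamines are abundant, so read counts of Oaz1 and Oaz2 do not show how much antizyme was made. The sites are shown because both genes were measured here as RNA only. Capitals mark TCCTGAT, in which TGA is the stop in the first frame; each stretch has 45 bases, is written 5′ to 3′ and lies on the plus strand of GRCm38 in a coding exon, at chr10:80828274-80828318 for Oaz1 and at chr9:65686251-65686295 for Oaz2 (GENCODE M21 transcripts).
Oaz1: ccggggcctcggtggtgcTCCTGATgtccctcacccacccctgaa
Oaz2: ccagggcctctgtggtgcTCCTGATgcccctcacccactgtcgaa

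The sequences upstream of Sat1, the member with the largest rise, and Oaz1, the only member that fell past the threshold, are shown for comparison. They are the 250 bases before the RefSeq start (GRCm38.p6), 5′ to 3′ on the gene's strand, at chrX:155216450-155216699 on the minus strand for Sat1 and at chr10:80826406-80826655 on the plus strand for Oaz1. Capitals mark matches to any of 5 motifs searched on both strands; the only one is in Oaz1, from 13 bases before the start.
Sat1: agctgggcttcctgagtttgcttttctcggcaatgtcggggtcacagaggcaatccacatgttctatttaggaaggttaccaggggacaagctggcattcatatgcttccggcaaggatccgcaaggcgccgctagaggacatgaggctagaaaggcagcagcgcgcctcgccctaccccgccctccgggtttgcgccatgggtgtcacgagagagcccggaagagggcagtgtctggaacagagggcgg
Oaz1: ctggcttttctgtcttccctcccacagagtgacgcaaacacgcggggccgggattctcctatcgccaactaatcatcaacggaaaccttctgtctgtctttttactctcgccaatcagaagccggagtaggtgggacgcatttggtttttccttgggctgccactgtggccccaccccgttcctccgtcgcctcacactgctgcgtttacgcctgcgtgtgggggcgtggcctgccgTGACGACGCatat

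The motifs were the E-box CACGTG, the core of the antioxidant response element TGACNNNGC, the ATF4-type CARE motif TGATGNAA, the cAMP response element TGACGTCA and the AP-1 site TGANTCA. Windows of 300 bases, from 250 before to 50 after the start, were searched for the 8 members that had an entry. Srm and Azin1 had none, and Sms and Paox had 2 windows each. A member was counted if any of its windows matched, while the share over all windows counts each window, so the units differ. The antioxidant response element core was in the windows of Oaz1 and Smox, 2 of 8 members, and in 12.4% of all 32851 windows. The E-box was in 1 of the 8, Sms, in 1 of its 2 windows, and in 7.15% of all windows. CARE, cAMP response element and AP-1 letters were in 0 of the 8 and in 3.97%, 1.79% and 7.81% of all windows. The Sat1 window held none of the 5.

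Total counts per library ranged from 13333911 to 18505571 with DMSO and from 16800789 to 20509970 with erastin, and 3 reads, taken as the detection floor, were worth 0.14 to 0.234 CPM (read counts scaled to library size). The floor covers counting error only, because the libraries were amplified by PCR without molecular identifiers. All 12 fibroblast markers were detected, and their summed level ran from 36021 to 39024 CPM with DMSO and from 25833 to 27319 CPM with erastin, and 10 of them were lower with erastin. The 7 epithelial markers summed to at most 3.25 CPM in any library. Of the 4 endothelial markers, Kdr and Tek were higher with erastin, while Pecam1 and Cdh5 had 1 to 15 reads per library; the summed endothelial level was 4.66 to 7.1 CPM in DMSO and 13.2 to 16.4 CPM in erastin libraries. Neural markers summed to 72.3 to 101 CPM with DMSO and 54.7 to 61.2 CPM with erastin, and Tubb3 among them was lower (log2 fold change -0.74, edgeR adjusted p = 0.00032). Muscle markers summed to 86.6 to 107 CPM with DMSO and 82 to 90.5 CPM with erastin, with Des higher (0.72) and Acta1 lower (-1.58). Blood markers summed to 9.49 to 17.9 CPM across all libraries. The part of these shifts in the results below was not tested, and in bulk RNA fewer cells of a type and less RNA per cell cannot be told apart.

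With erastin, transcripts of the acetylating enzyme Sat1, the antizyme inhibitor Azin1 and the spermine oxidase Smox rose, that of antizyme 1 fell, and none of the 4 synthesis genes passed the test. All 10 members passed the filter on low counts. At an adjusted p under 0.05 (edgeR quasi-likelihood test, Benjamini-Hochberg over 14000 genes) 3 members were higher and 1 was lower, against 21.6% and 21.5% of all genes tested, and 6 did not pass. The 4 of 10 that passed were a share close to the 43.1% of all genes, so the count itself does not set the members apart. In 6 of 10 members the libraries of the groups did not overlap, 4 higher and 2 lower with erastin, against 52.5% of all genes (26.7% higher, 25.8% lower). The median log2 fold change was 0.253 over the members and -0.00142 over all genes tested.

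**Figure D1:**
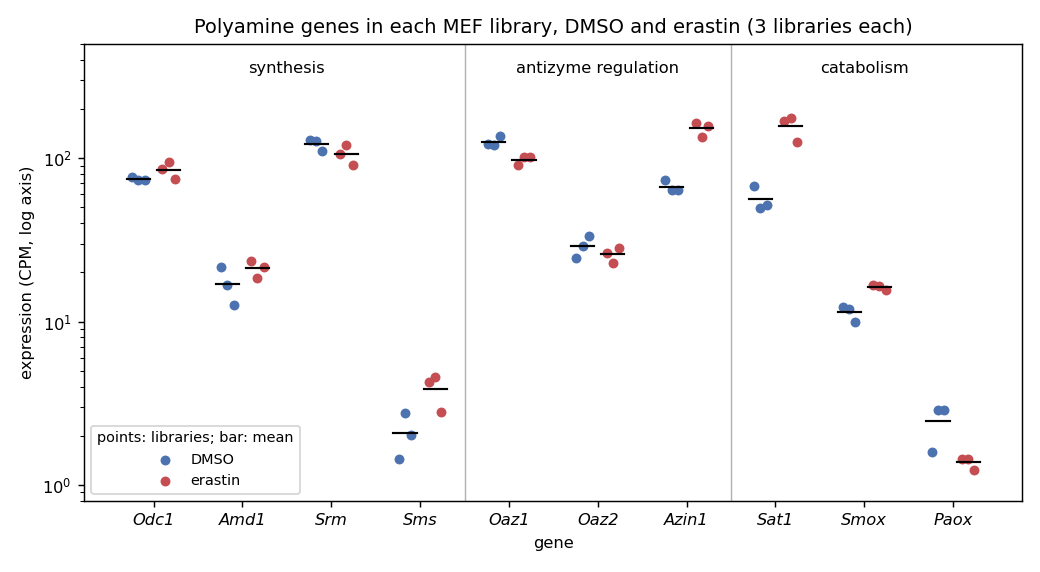
Expression (CPM, log axis) of the 10 members in each of the 3 DMSO and 3 erastin libraries, with points for libraries and bars for group means. Azin1 lies at 63.6 to 73.1 CPM in DMSO and 135 to 164 CPM in erastin libraries, Sat1 at 49.9 to 67.9 and 125 to 177 CPM, and Sms and Paox lie below 5 CPM in all of them.

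Sat1 (ENSMUSG00000025283.11, chrX:155213132-155216449, minus strand) encodes the enzyme that acetylates spermidine and spermine. It stood at 67.9, 49.9 and 52 CPM in DMSO replicates 1, 2 and 3 and at 168, 177 and 125 CPM in erastin replicates 1, 2 and 3. The lowest erastin library was above the highest DMSO library. This was a 2.77-fold rise, from 56.6 ± 9.8 to 157 ± 27.6 CPM (SD, n = 3 each; log2 fold change 1.47, SE 0.13, 95% confidence interval 1.18 to 1.75, edgeR adjusted p = 6.58e-07).

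Smox (ENSMUSG00000027333.14, chr2:131491496-131525922, plus strand), the spermine oxidase gene, stood at 12.3, 11.9 and 10 CPM in DMSO and at 16.7, 16.6 and 15.7 CPM in erastin libraries. All erastin libraries were above all DMSO libraries, and the erastin values lay close together. The rise was 1.43-fold, from 11.4 ± 1.2 to 16.3 ± 0.589 CPM (SD, n = 3 each; log2 fold change 0.52, SE 0.16, adjusted p = 0.0188 by edgeR). The call did not hold without DMSO replicate 3 (log2 fold change 0.43, edgeR adjusted p = 0.0535), erastin replicate 1 (0.50, adjusted p = 0.0657) or erastin replicate 2 (0.50, adjusted p = 0.0527). Over its 16 alternatives the adjusted p ran from 0.00501 to 0.0657. Smox was also lost at an adjusted p under 0.01 and in a test (glmTreat) for changes beyond 0.5 on the log2 scale, each of which left 2 members higher.

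Paox (ENSMUSG00000025464.10, chr7:140115799-140137224, plus strand), whose product oxidises acetylated polyamines, had only 21 to 52 reads in DMSO and 24 to 31 reads in erastin libraries. Its levels were 1.59, 2.88 and 2.88 CPM in DMSO and 1.44, 1.44 and 1.24 CPM in erastin libraries. The erastin values lay below the DMSO values without overlap, but the difference did not pass (log2 fold change -0.83, 95% confidence interval -1.83 to 0.16, edgeR adjusted p = 0.168). At these read numbers a fall of that size was not distinguishable from the spread. Sat1 and Smox, in contrast, were measured on 129 to 3609 reads per library.

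Among the antizyme genes, Azin1 (ENSMUSG00000037458.10, chr15:38487427-38519266, minus strand) changed most. It stood at 73.1, 63.6 and 64.2 CPM in DMSO and at 164, 135 and 157 CPM in erastin libraries. Every erastin library was above every DMSO library, by a margin larger than the spread within either group. The rise was 2.27-fold, from 67 ± 5.28 to 152 ± 15 CPM (SD, n = 3 each; log2 fold change 1.18, SE 0.09, 95% confidence interval 0.98 to 1.39, edgeR adjusted p = 1.77e-07).

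Oaz1 (ENSMUSG00000035242.11, chr10:80826656-80829290, plus strand), the antizyme transcript with the frameshift site shown above, moved the other way. It stood at 122, 120 and 136 CPM in DMSO and at 90.7, 101 and 101 CPM in erastin libraries. All erastin libraries lay below all DMSO libraries. The level was 0.773 times that in DMSO (126 ± 8.86 to 97.6 ± 5.96 CPM, SD, n = 3 each; log2 fold change -0.37, SE 0.09, adjusted p = 0.00262 by edgeR), and the fall did not pass a test (glmTreat) for changes beyond 0.5 in either direction on the log2 scale. Oaz2 (ENSMUSG00000040652.11, chr9:65668001-65690300, plus strand), the second antizyme, stood at 24.5, 29.2 and 33.5 CPM in DMSO and at 26.4, 22.7 and 28.2 CPM in erastin libraries. The Oaz2 groups overlapped, and the difference did not pass (log2 fold change -0.17, 95% confidence interval -0.47 to 0.13, edgeR adjusted p = 0.353).

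A second antizyme inhibitor gene, Azin2, which belongs to the other polyamine genes listed, is shown beside Azin1 as its closest counterpart. It stood at 76.3, 70.8 and 88.4 CPM in DMSO and at 31.4, 32.7 and 39.9 CPM in erastin libraries, with no overlap. The log2 fold change of Azin2 was -1.18 (SE 0.11; edgeR adjusted p = 1.23e-06), so the antizyme inhibitor transcripts Azin1 and Azin2 changed in opposite directions.

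Of the 4 synthesis genes 0 passed by edgeR, and 0 by DESeq2, while 43.1% of all genes tested passed by edgeR. At an unadjusted p under 0.05 the edgeR count was 1, Sms, against 7014 of all 14000 genes. A count over 4 genes is too small to set the synthesis genes apart from these shares. Odc1 (ENSMUSG00000011179.7, chr12:17544794-17551505, plus strand), which encodes the first enzyme of the route, stood at 76.9, 73.8 and 73.9 CPM in DMSO and at 86.3, 95.1 and 74.3 CPM in erastin libraries. Erastin replicate 3 lay among the DMSO libraries and the other 2 above them (log2 fold change 0.19, SE 0.10, 95% confidence interval -0.02 to 0.39, edgeR adjusted p = 0.138). Without erastin replicate 3 the log2 fold change of Odc1 was 0.28 and passed (edgeR adjusted p = 0.0239). It also passed after an offset for GC content and transcript length (0.26, edgeR adjusted p = 0.033) and with that offset plus the replicate block (0.26, adjusted p = 0.0379), and over its 16 alternatives the adjusted p ran from 0.0239 to 0.477. In the fit on all libraries the upper bound of the interval for Odc1, 0.39, was below the lower bounds for Sat1 (1.18) and Azin1 (0.98). Intervals were not computed for the alternatives, in which the log2 fold change of Odc1 reached 0.28.

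Srm (ENSMUSG00000006442.10, chr4:148591503-148594993, plus strand), spermidine synthase, stood at 129, 128 and 111 CPM in DMSO and at 106, 121 and 90.6 CPM in erastin libraries, with overlap. The difference did not pass (log2 fold change -0.22, 95% confidence interval -0.44 to 0.01, edgeR adjusted p = 0.107). Its call and sign depended on the setting. Srm passed as lower without DMSO replicate 3 (-0.28, edgeR adjusted p = 0.0434), without erastin replicate 2 (-0.32, adjusted p = 0.0306) and with upper-quartile factors (-0.27, adjusted p = 0.0488), and its log2 fold change was 0.02 (adjusted p = 0.871) after an offset for GC content and transcript length; the adjusted p ran from 0.0306 to 0.871 over its 16 alternatives.

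Amd1 (ENSMUSG00000075232.4, chr10:40287458-40302186, minus strand), the S-adenosylmethionine decarboxylase gene, stood at 21.7, 16.7 and 12.7 CPM in DMSO and at 23.5, 18.6 and 21.6 CPM in erastin libraries. The DMSO libraries spread widely and overlapped the erastin libraries (log2 fold change 0.32, 95% confidence interval -0.07 to 0.71, edgeR adjusted p = 0.176). Without DMSO replicate 1 the log2 fold change of Amd1 was 0.53 (edgeR adjusted p = 0.0371), and without other libraries or under other settings the adjusted p reached 0.505.

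Sms (ENSMUSG00000071708.7, chrX:157443855-157492287, minus strand), spermine synthase, was counted on 19 to 50 reads in DMSO and 54 to 91 reads in erastin libraries. It stood at 1.44, 2.77 and 2.02 CPM in DMSO and at 4.24, 4.61 and 2.8 CPM in erastin libraries. The groups did not overlap, though erastin replicate 3 was barely above DMSO replicate 2, and the difference did not pass (log2 fold change 0.89, SE 0.39, adjusted p = 0.0828 by edgeR; unadjusted p = 0.0399). Its 95% confidence interval, 0.05 to 1.73, was the widest among the synthesis genes.

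**Figure D2:**
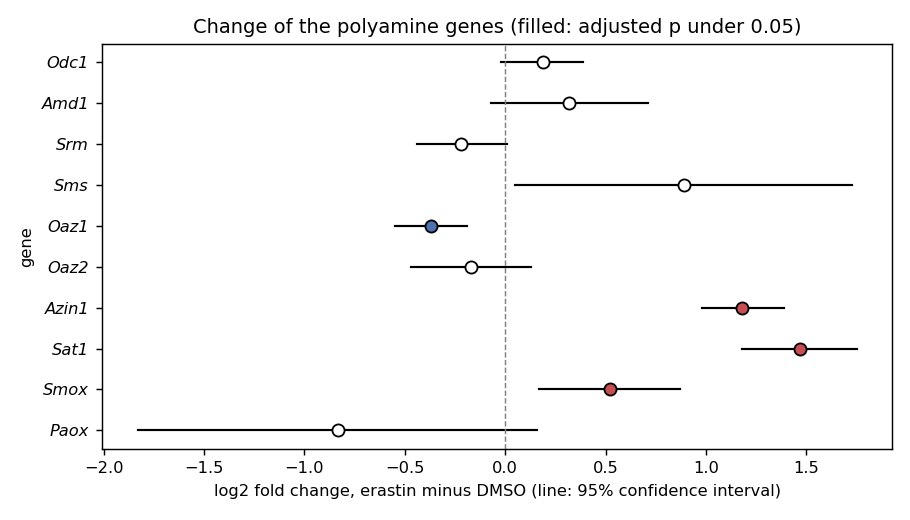
Log2 fold change of each member, erastin minus DMSO, with 95% confidence intervals from the edgeR fit; filled points passed at an adjusted p under 0.05. Sat1, Azin1 and Smox are filled above 0 and Oaz1 is filled below 0, while Paox and Sms, with the fewest reads, have the widest intervals.

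Several members have near-identical copies in the annotation, mostly processed pseudogenes, and the sources used here do not say how reads that match several places were counted. Copies were searched at 95% identity or more over at least 100 bases, covering at least 20% of the longest protein-coding transcript. Srm, Azin1 and Smox had 0 such copies. For Amd1, 99.8% of the transcript was matched, mainly by the gene Amd2, which had 3 to 21 reads per library; for Odc1 it was 62.8%, for Oaz1 63.6%, for Sat1 44.4%, for Sms 29.6%, for Paox 29.2% and for Oaz2 25.6%. The copy with the most reads was the Oaz1 pseudogene Oaz1-ps, with 252 to 349 reads per library, against 1621 to 2161 for Oaz1. When the reads of all counted copies were added to their member, a setting chosen after the data were seen, the same genes passed. Sms, which passed in neither case, went from a log2 fold change of 0.89 to 0.69 (edgeR adjusted p = 0.124). In DMSO replicate 1 its copies had 12 reads and Sms itself had 19. No reads were added to Sat1, Azin1 or Smox, so their log2 fold changes of 1.47, 1.18 and 0.52 could hardly move (edgeR adjusted p from 1.74e-07 to 0.0188). Among the members that passed, only Oaz1 gained reads, and it stood at -0.36 (edgeR adjusted p = 0.00221). Over all alternatives the adjusted p of Oaz1 ran from 0.000224 to 0.0347 and its log2 fold change from -0.42 to -0.24. That of Azin1 ran from 0.96 to 1.26. Both were smallest in size after the offset for GC content and transcript length, at -0.24 for Oaz1 and 0.96 for Azin1. The setting cannot account for reads that counting may have left out because they match several places. Neither of the copies of Sat1 is a row of the count table used here. Exons of Azin1 overlap those of the antisense gene Gm49077 over 5.72% of their length, and those of Paox overlap Echs1 over 2.89%. Those of Oaz1 overlap the microRNA gene Mir1982, on the same strand, over 2.89%. Whether counting used strand is not given in the sources used here.

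Ratios of members within a library do not depend on how libraries are scaled. The log2 ratio of Azin1 to Oaz1 was -0.74, -0.91 and -1.09 in DMSO and 0.85, 0.42 and 0.64 in erastin libraries, so Azin1 reads were fewer than Oaz1 reads in every DMSO library and more in every erastin library. The difference of the means was 1.55, a 2.93-fold change of the ratio. The log2 ratio of Sat1 to Odc1 was -0.18, -0.56 and -0.51 in DMSO and 0.96, 0.89 and 0.75 in erastin libraries, a difference of 1.29. This ratio too was below 0 in every DMSO library and above 0 in every erastin library. These compare read numbers, which also depend on transcript length, so only the change of a ratio between the groups can be read.

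The log2 ratio of Odc1 to Oaz1 was -0.67, -0.70 and -0.88 in DMSO and -0.07, -0.09 and -0.44 in erastin libraries, without overlap, and its difference was 0.55. That of Smox to Sms was 3.07, 2.09 and 2.29 in DMSO and 1.97, 1.85 and 2.47 in erastin libraries, which overlapped. No test was made of the ratios, since 3 libraries against 3 cannot give a two-sided exact permutation p below 0.10.

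**Figure D3:**
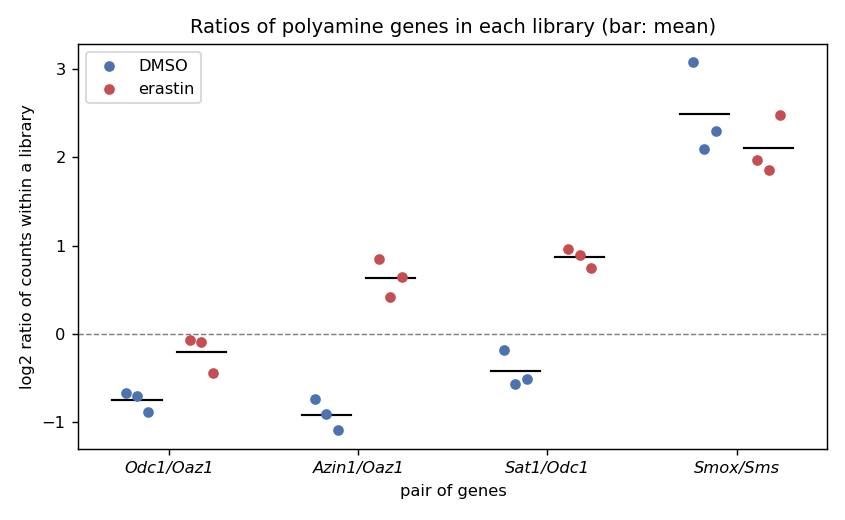
Log2 ratio of the read counts of 2 members within each library, for 4 pairs, with points for the 3 DMSO and 3 erastin libraries and bars for group means. The ratios Azin1/Oaz1 and Sat1/Odc1 are below 0 in all DMSO libraries and above 0 in all erastin libraries, and Smox/Sms overlaps between the groups.

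Levels of different members were compared per kilobase (kb) of exon, in CPM per kb. In DMSO libraries Srm was highest at 76.8 ± 6.26 CPM per kb (SD, n = 3), followed by Oaz1 at 49.3, Odc1 at 22, Sat1 at 20.4, Azin1 at 10.7, Oaz2 at 9.71, Amd1 at 4.8, Smox at 2.93, Paox at 0.499 and Sms at 0.346. The ranges over the 3 libraries overlapped between the neighbours Odc1 and Sat1, Azin1 and Oaz2, and Paox and Sms, and did not overlap between the other neighbours. In erastin libraries Sat1, at 45.1 to 63.6 CPM per kb, stood next to Srm, at 56.7 to 75.4, and the 2 overlapped; Odc1 and Azin1 overlapped as well, and Paox, at 0.28, was below Sms, at 0.646. Sat1 moved from rank 4 to rank 2. The order depends on the length used: with the length of the longest transcript Sat1 was at rank 3 in DMSO and rank 1 in erastin libraries, and 4 of 10 members kept their place in DMSO and 6 in erastin libraries. For Oaz1 both lengths, 2558 and 2526 bases, were far above the 1071 bases of its longest protein-coding transcript. No order was computed with that length, so whether Oaz1 stood below Srm in DMSO libraries cannot be read from these values.

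Around the 10 members, 7 lists covered other polyamine genes, ornithine supply, S-adenosylmethionine supply and methylthioadenosine salvage, hypusine synthesis, polyamine transport, the MYC network and p53 with the lipoxygenases. Of their 56 genes, 37 passed the filter on low counts; 9 of these were higher (24.3%, against 21.6% of all genes tested) and 10 lower (27%, against 21.5%). The median log2 fold change was 0.0967, and -0.00142 over all genes. These shares were close to the background, and the changes were spread over both directions in 4 of the 7 lists. The counts per list below rest on 2 to 11 tested genes each and have the same 21.6% higher and 21.5% lower as their background.

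**Figure D4:**
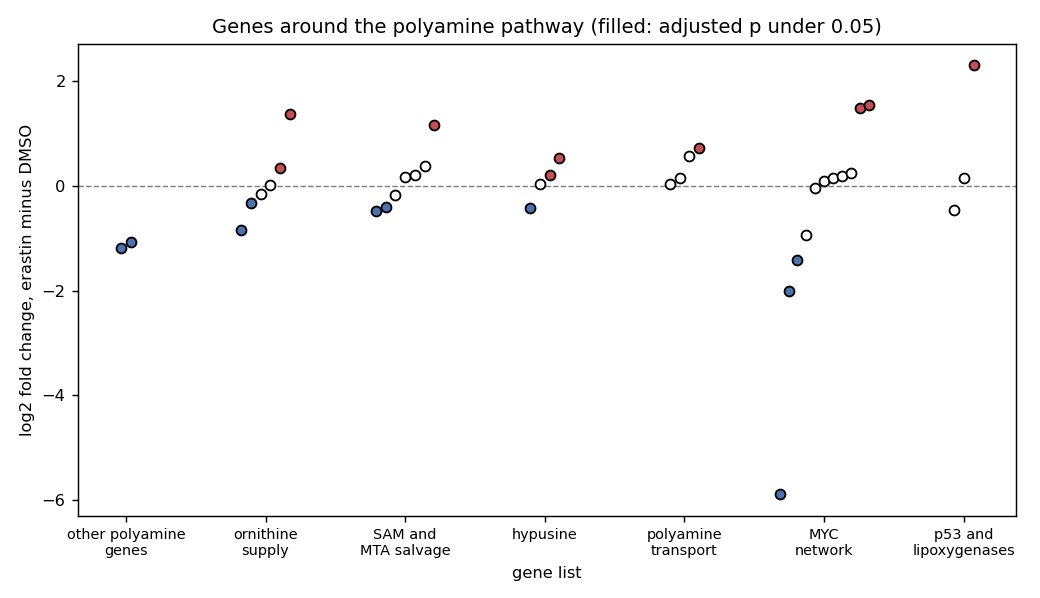
Log2 fold change, erastin minus DMSO, of the 37 tested genes in 7 lists around the polyamine pathway, with filled points for an adjusted p under 0.05. Ornithine supply, methionine, hypusine and MYC lists have filled points on both sides of 0; the lowest point, Mxd3, had at most 2 reads per erastin library, so its fitted value is not a measure of size.

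In the ornithine supply list, 2 of 6 tested genes were higher and 2 lower. Slc7a1, a transporter that brings arginine, ornithine and lysine into the cell, stood at 145, 137 and 149 CPM in DMSO and 375, 383 and 354 CPM in erastin libraries (log2 fold change 1.37, SE 0.07, adjusted p = 3.16e-09 by edgeR). Its relative Slc7a2 was lower (log2 fold change -0.33, edgeR adjusted p = 0.0264), a call that was lost without DMSO replicate 2 (-0.28) or 3 (-0.28) or without erastin replicate 1 (-0.36) or 2 (-0.27), and with scaling by total count only (-0.26); its adjusted p ran from 0.00278 to 0.109 over the alternatives. Oat, whose product links ornithine to glutamate and proline, fell from 241 ± 18.7 to 133 ± 0.875 CPM (SD, n = 3 each; log2 fold change -0.85, edgeR adjusted p = 5.52e-07). Aldh18a1, which feeds proline and ornithine synthesis from glutamate, rose from 189 ± 4.13 to 241 ± 2.44 CPM (SD, n = 3 each; log2 fold change 0.35, adjusted p = 0.000791 by edgeR). Arg1 and Arg2, the arginases that make ornithine from arginine, had too few reads to be tested, with at most 8 per library.

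In the list of S-adenosylmethionine supply and methylthioadenosine salvage, 1 of 7 tested genes was higher and 2 were lower. Mat2a, which makes S-adenosylmethionine, stood at 98.3, 95.5 and 85.9 CPM in DMSO and 215, 199 and 217 CPM in erastin libraries (log2 fold change 1.17, SE 0.08, adjusted p = 4.22e-08 by edgeR). The groups were far apart compared with their spread. Mtap and Mri1, which recycle the methylthioadenosine left over by Srm and Sms, were lower, with log2 fold changes of -0.40 and -0.48 (adjusted p = 0.0017 and 0.00794 by edgeR). The call of Mri1 did not hold without erastin replicate 1 (-0.40, edgeR adjusted p = 0.0501; range over its alternatives 0.00396 to 0.0501).

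Hypusine is an amino acid made from spermidine on the translation factor eIF5A. In its list of 4 genes, Dhps, the enzyme that uses the spermidine, stood at 30.3, 29.3 and 32.4 CPM in DMSO and at 47.9, 47.4 and 38.4 CPM in erastin libraries, and rose (log2 fold change 0.54, SE 0.12; adjusted p = 0.00152 by edgeR). Eif5a passed at 0.20 (edgeR adjusted p = 0.0396) and Dohh, which completes the modification, passed as lower at -0.42 (adjusted p = 0.0281). Neither call held in every alternative. Dohh was -0.07 after the offset for GC content and length (edgeR adjusted p = 0.734; range over its alternatives 0.000697 to 0.77), and failed without DMSO replicate 1 (-0.28) or 2 (-0.37) or erastin replicate 2 (-0.41) or 3 (-0.35), with scaling by total count only (-0.36) and with the offset plus the replicate block (-0.05). Eif5a failed without DMSO replicate 2 (0.17) or 3 (0.18) or erastin replicate 1 (0.20) or 2 (0.15) and with upper-quartile factors (0.15), and its adjusted p ran from 0.000374 to 0.165.

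Of 4 tested transport genes, 1 was higher and 0 lower, and at an unadjusted p under 0.05 these counts did not change (edgeR). Atp13a3, a pump of the family that takes up polyamines, stood at 217, 183 and 184 CPM in DMSO and at 342, 302 and 316 CPM in erastin libraries (log2 fold change 0.72, SE 0.08, adjusted p = 7.24e-06 by edgeR). Among the other polyamine genes only Azin2 and Sat2 could be tested. Sat2, an acetyltransferase related to Sat1, stood at 6.72, 4.6 and 4.13 CPM in DMSO and at 1.63, 3.53 and 2.23 CPM in erastin libraries. It passed as lower (log2 fold change -1.07, SE 0.37, adjusted p = 0.0309 by edgeR), but not without DMSO replicate 1 (adjusted p = 0.144) or 2 (0.0542) or erastin replicate 1 (0.129) or 3 (0.0716); the range over its alternatives was 0.0145 to 0.144.

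In the MYC network, which is listed because MYC is a known activator of Odc1, 2 of 11 genes were higher and 3 lower. These shares, 18.2% and 27.3%, were near the 21.6% and 21.5% of all genes tested, so the counts do not set the list apart. Myc stood at 48.6, 49.3 and 42.1 CPM in DMSO and at 133, 145 and 115 CPM in erastin libraries (log2 fold change 1.49, SE 0.10, adjusted p = 4.24e-08 by edgeR). The lowest erastin library was above the highest DMSO library. Mxi1, which competes with MYC for its partner MAX, rose as well, from 11.7 ± 0.993 to 34.2 ± 2.82 CPM (SD, n = 3 each; log2 fold change 1.54, edgeR adjusted p = 4.6e-07). Mxd4, of the same family, and the MYC relative Mycl were lower, going from 146 to 54.3 and from 7.01 to 1.76 CPM (adjusted p = 1.27e-08 and 0.000272 by edgeR), and Mxd3, also lower, had 20 to 99 reads in DMSO libraries and 0 to 2 in erastin libraries (adjusted p = 3.8e-05).

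The last list was set out because SAT1 has been linked to p53 and to the lipoxygenase ALOX15. For Trp53 the mean level with DMSO was 112 ± 5.03 CPM and with erastin 124 ± 12.2 CPM (SD, n = 3 each), a difference that did not pass (log2 fold change 0.14, 95% confidence interval -0.05 to 0.33, edgeR adjusted p = 0.219). Alox15 had 0 reads in all 6 libraries, which allows a level of up to 0.14 to 0.234 CPM depending on the library. Aloxe3 was the only 1 of 3 tested genes in this list to pass (edgeR adjusted p = 0.0247), at 0 to 11 reads in DMSO and 20 to 53 reads in erastin libraries, and it did not pass without DMSO replicate 1 or 3 or erastin replicate 1 or 2 (log2 fold changes 2.36, 1.77, 1.96 and 2.33, against 2.30 with all libraries and 3.13 without DMSO replicate 2, where it passed; adjusted p over its alternatives 0.00723 to 0.139).

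The genes whose profile over the 6 libraries lay closest to that of Sat1, by Euclidean distance of log2(CPM + 0.5) centred on each gene's mean, taken over the 11260 genes averaging 50 or more reads, were the processed pseudogene Gm7901 (distance 0.151), Zbtb10 (0.159) and Dusp8 (0.214). Their mean levels went from 3.37 to 10.8, from 13.8 to 37.3 and from 9.81 to 28.3 CPM from DMSO to erastin. With 6 libraries in 2 groups, this likeness mostly describes a rise of similar size.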

How the data were processed

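RNA-seq libraries were made from rRNA-depleted, heat-fragmented total RNA of MEFs and sequenced on an Ion Proton, per the labels' protocols. The deposited values were whole-number read counts per gene without normalization; HTSeq 0.9.1, SAMtools and the build mm10 are named, without role, in the submitters' processing notes. The aligner, annotation, strand setting and handling of multiply matching reads are not given in the sources used here. Each column was assigned by the sample number that a label gives, and groups and replicate numbers came from the titles. The header line was 1 field short, so its sample numbers were taken to stand, in order, over the columns of counts. Of the columns of per-sample values, 0 were unused. Identifiers were matched without version to GENCODE M21 (GRCm38, the assembly also called mm10; 42462 of 43346 matched, 98%).

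Counts were analysed with edgeR 4.0.16 (limma 3.58.1, R 4.3.3): filterByExpr (minimum count 10, total 15), TMM factors, and the quasi-likelihood test of erastin against DMSO on the 6 libraries, the model holding treatment alone, with Benjamini-Hochberg adjustment over 14000 genes. CPM used the summed counts of the kept genes and the TMM factors. Standard errors came from the fitted weights and posterior quasi-dispersion. Replicates of a group differed by more than sampling noise (chi-square per degree of freedom 11 to 19.2). Copies were searched with BLAST 2.17.0, and promoter windows came from RefSeq. In ratios, 0.5 was added to each count.

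The members and lists were chosen with earlier results of these data known. Named genes were the members, up to 4 genes per list with the largest change among those past the threshold at a mean count of at least 50, every gene behind a count of 5 or fewer, and the 3 genes closest to Sat1. Others (Arg1, Arg2, Trp53, Alox15, Amd2, Oaz1-ps and markers) were named after their values were seen. Alternatives were other scalings, filters, a replicate block, an offset for GC content and length (mgcv 1.9.3), DESeq2 1.42.0, leaving out each library, an adjusted p under 0.01, glmTreat against 0.5 for the members' counts, and, added after the data were seen, reads of copies summed with their member.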

Additional observations from a re-analysis of the deposited data

How the results depend on the processing

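The count of all genes passing stayed within 1.5 times its value of 6028 in all 17 alternatives (4305 to 6104; 4802 to 5809 when 1 library was left out), as did the members higher (3; 2 to 4), the list genes higher (9; 7 to 12) and the list genes lower (10; 7 to 10). The count of members lower, 1, was 2 with upper-quartile factors, 1 to 2 when 1 library was left out, and 0 with glmTreat against 0.5; Oaz1 passed in the other alternatives run, and the second gene was Srm. Srm, at -0.22, was 0.02 after the GC and length offset, with and without the replicate block. The cause was not tested. Of 32 single genes followed, 22, among them Sat1, Azin1 and Oaz1, kept direction and side of the threshold in all 16 alternatives. The setting that added reads of copies gave no reads to Sat1 or Azin1, so it could hardly move them. With the length of the longest transcript, 4 of 10 members kept their rank of level in DMSO and 6 in erastin. When 1 library was left out, the difference of the log2 ratio ran from 1.44 to 1.66 for Azin1/Oaz1 and from 1.21 to 1.40 for Sat1/Odc1. It ran from 0.48 to 0.67 for Odc1/Oaz1 and from -0.58 to -0.09 for Smox/Sms. Equally numbered libraries had a mean correlation of deviations of 0.018 (0.0601, 0.00344 and -0.0096 for the 3 numbers), and 3 of 6 libraries correlated best with their own number. These values showed little likeness by number, but so few libraries cannot show whether the numbers pair them. With the replicate block 5882 genes passed, of which 5751 also passed without the block, and 3 members were higher and 1 lower. Sms and Paox rest on 19 to 91 reads per library, which limits what could be seen for them.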
